A study of Mus musculus with 9 samples.

Results

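Plexins are cell-surface receptors and class 3 semaphorins are the secreted ligands that many of them read. This account follows 10 mouse genes of that system among 23892 genes measured in retinal RNA, where an array target without a symbol counts as a gene. The 10 are the receptors Plxna1, Plxna2, Plxna3, Plxna4 and Plxnd1 and the ligands Sema3a, Sema3c, Sema3e, Sema3f and Sema3g. The members were every non-control array probe whose RefSeq transcript accession led to one of those symbols, which gave 14 of 39429 probes. Plxna3 was chosen by its higher signal on these HAN arrays, so its values are a description and carry no test. The other 9 members were tested in a model fitted across all genes.

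Retinas came from adult male C57BL/6 mice, 12 in a group, whose right eye had received HAN, AAP or, as the negative control, phosphate-buffered saline (PBS) by intravitreal injection 7 days before. HAN and AAP are peptides that bind vascular endothelial growth factor (VEGF), per the series title. The labels give 1 µM and word that dose for PBS too. Tubes held 4 pooled retinas and each group had 3 arrays, so an array is a pool and the p-values measure the spread between pools. All groups were injected, and no uninjected retina was analysed here.

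A class 3 semaphorin usually binds a neuropilin on the receiving cell, and the plexin paired with that neuropilin carries the signal inward, where it loosens the cytoskeleton and turns a growing axon or a vessel sprout away. Sema3e is the exception, since it binds Plxnd1 without a neuropilin. In the retina this system is known for steering ganglion cell axons and for shaping the vascular bed, and the neuropilin Nrp1 is also a co-receptor for VEGF.

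Sequence upstream of the start was found in the RefSeq promoter table (build GRCm38.p6) for 7 of the 10 members, and was not used here for Plxna1, Plxna4 and Sema3f. The 250 bases before the start are printed for Plxna3, the member picked for its values, and Sema3c, the member that varied most between arrays, both read 5′ to 3′ on the plus strand. Capitals mark GGGCGG and its reverse complement CCGCCC, the core of a GC box. Plxna3 lies on chromosome X, and its window is chrX:74328816-74329065. Sema3c lies on chromosome 5, and its window is chr5:17574566-17574815.
Plxna3: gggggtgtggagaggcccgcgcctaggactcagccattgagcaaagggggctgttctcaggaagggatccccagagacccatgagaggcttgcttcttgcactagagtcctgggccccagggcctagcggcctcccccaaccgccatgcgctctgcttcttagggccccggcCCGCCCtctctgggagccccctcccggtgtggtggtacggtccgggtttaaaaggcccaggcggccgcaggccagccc
Sema3c: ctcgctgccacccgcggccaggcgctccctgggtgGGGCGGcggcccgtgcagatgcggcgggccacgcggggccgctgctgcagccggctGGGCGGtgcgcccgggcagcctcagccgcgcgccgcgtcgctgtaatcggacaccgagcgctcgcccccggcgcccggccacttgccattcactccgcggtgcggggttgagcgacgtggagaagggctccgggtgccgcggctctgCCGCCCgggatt
The Plxna3 window holds the motif 1 time and the Sema3c window 3 times, at 68.0% and 78.4% GC against a median of 52.4% over 32851 promoters in the table. Searched on both strands, GGGCGG was in 6 of the 7 member windows and in 32.7% of all windows, and TATAAA was in 0 of 7 and in 12.4%. A match of letters is a description and not a binding site, and the arrays measured no promoter.

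Every level below is a log2 signal after subtraction of the array's own 75th percentile, so 0 is that percentile and levels of different probes are not compared. That percentile was 1334 to 2343 intensity units over the arrays, and the share of spots well above background was 71.6% to 79.2%. All 10 genes were measured: 13 of the 14 probes stood well above background on all 9 arrays, while a second Plxna4 probe did so on 2 of 9 and was left out. The arrays lay on 3 slides, each scanned in a run of its own. PBS 1, PBS 2, PBS 3 and AAP 1 were on slide 1, HAN 1, HAN 2, AAP 2 and AAP 3 on slide 2 and HAN 3 on slide 3. HAN and PBS therefore shared no slide, and slide and group cannot be told apart there by arrays of the same slide. Skeletal muscle markers were raised on AAP 1 and AAP 3 (mean log2 difference from the PBS mean 5.89 and 4.53), against -0.31 on AAP 2 and from -0.17 to -0.00 on the HAN arrays, so these libraries stand apart from the third AAP pool. All 7 markers of Mueller glia and all 8 of amacrine and horizontal cells were well above background on all 9 arrays. The same held for all 11 lens, all 6 cornea, iris and ciliary body and all 7 pigment epithelium markers. Being above background therefore does not tell retina from other eye tissue.

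Plxna3, plexin A3, is a receptor that pairs with neuropilins to bind class 3 semaphorins. Its probe read -1.15, -1.28 and -1.25 in the HAN pools, -1.39, -1.28 and -1.30 in the AAP pools, and -1.61, -1.67 and -1.56 in the PBS pools. Every HAN and every AAP pool lay above every PBS pool, as they did in 10.5% and 6.52% of all genes, and HAN was above AAP by the narrowest of margins, with a gap of 0.004 between the closest arrays. The means were -1.22 ± 0.07 in HAN, -1.32 ± 0.06 in AAP and -1.61 ± 0.06 in PBS (SD, n = 3 each), so the order was HAN, AAP, PBS. The HAN mean was 0.39 above PBS on the log2 scale, or 1.31-fold, and the AAP mean was 0.29 above PBS, or 1.22-fold. Both comparisons use the same PBS pools and are not independent of each other. HAN stood 0.10 above AAP, 1.07-fold, beside SDs of 0.07 and 0.06 within the groups.

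The Plxna3 values were smaller with the slide taken into account. With slide as a fixed block, HAN minus PBS was 0.30 and AAP minus PBS 0.22, which equals AAP 1 against the PBS pools on slide 1. The blocked HAN value rests on AAP 1 too, as the link between HAN and PBS slides. On slide 2 alone, HAN 1 and HAN 2 stood 0.07 above AAP 2 and AAP 3. The difference between HAN and PBS ran from 0.30 to 0.47 over 24 alternatives, and that between AAP and PBS from 0.22 to 0.33 over 25. Since Plxna3 was chosen on these arrays, these ranges show only how far its values move.

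Among the retinal marker lists reported here, those of ganglion cells and microglia had the most members separated between a peptide group and PBS. Of 8 amacrine and horizontal cell markers, 1 was higher in every AAP pool than in every PBS pool. Of 7 Mueller glia markers, 1 was lower in every AAP pool. In HAN, 0 markers of these latter lists were separated from PBS. For retinal ganglion cells, the neurons that send axons to the brain, all 9 listed markers were well above background on all arrays. Of these, 5 of the 9 were higher in every HAN pool than in every PBS pool, against 2 of 9 for AAP. Over all genes the shares were 10.5% for HAN and 6.52% for AAP. Their summed signal, as a multiple of the array's 75th percentile, was 51.8, 51.0 and 48.7 in HAN, 46.0, 50.9 and 55.9 in AAP, and 44.0, 42.1 and 49.2 in PBS. These sums overlapped between groups, with AAP 3 highest and PBS 3 above HAN 3 and AAP 1. As a mean log2 difference from the PBS mean, the list stood at 0.28, 0.22 and 0.17 in HAN. It stood at 0.11, 0.17 and 0.30 in AAP, and at 0.03, -0.17 and 0.14 in PBS. By that measure every HAN pool lay above every PBS pool, while AAP 1 lay below PBS 3. Of 9 microglia markers, 5 were lower in every HAN pool than in every PBS pool, and 7 were lower in every AAP pool. Among all genes, 10.4% were lower in this way in HAN and 5.40% in AAP. Their summed signal was 9.44, 6.55 and 9.73 in HAN, 9.77, 8.28 and 6.77 in AAP, and 10.05, 10.3 and 11.2 in PBS. The part of any of these lists in the Plxna3 values was not tested. In a whole-retina extract, fewer cells of a type and less RNA per cell cannot be told apart.

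Genes whose values followed Plxna3 most closely over the 9 arrays were sought among 14925 named genes above background everywhere. The highest Pearson r belonged to Scn2a (0.96), Ccnt2 (0.94), Ciart (0.94), Spopfm2 (0.93) and Wdr34 (0.93). These arrays share their group differences and their slides. After group means were subtracted, so that only the variation within groups remained, the closest were Cpne4 (0.95), Ina (0.95), Tspan4 (0.95), Tubb1 (0.94) and Acot7 (0.93). The lists share no gene, and with 9 arrays they are a description only.

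**Figure D1:**
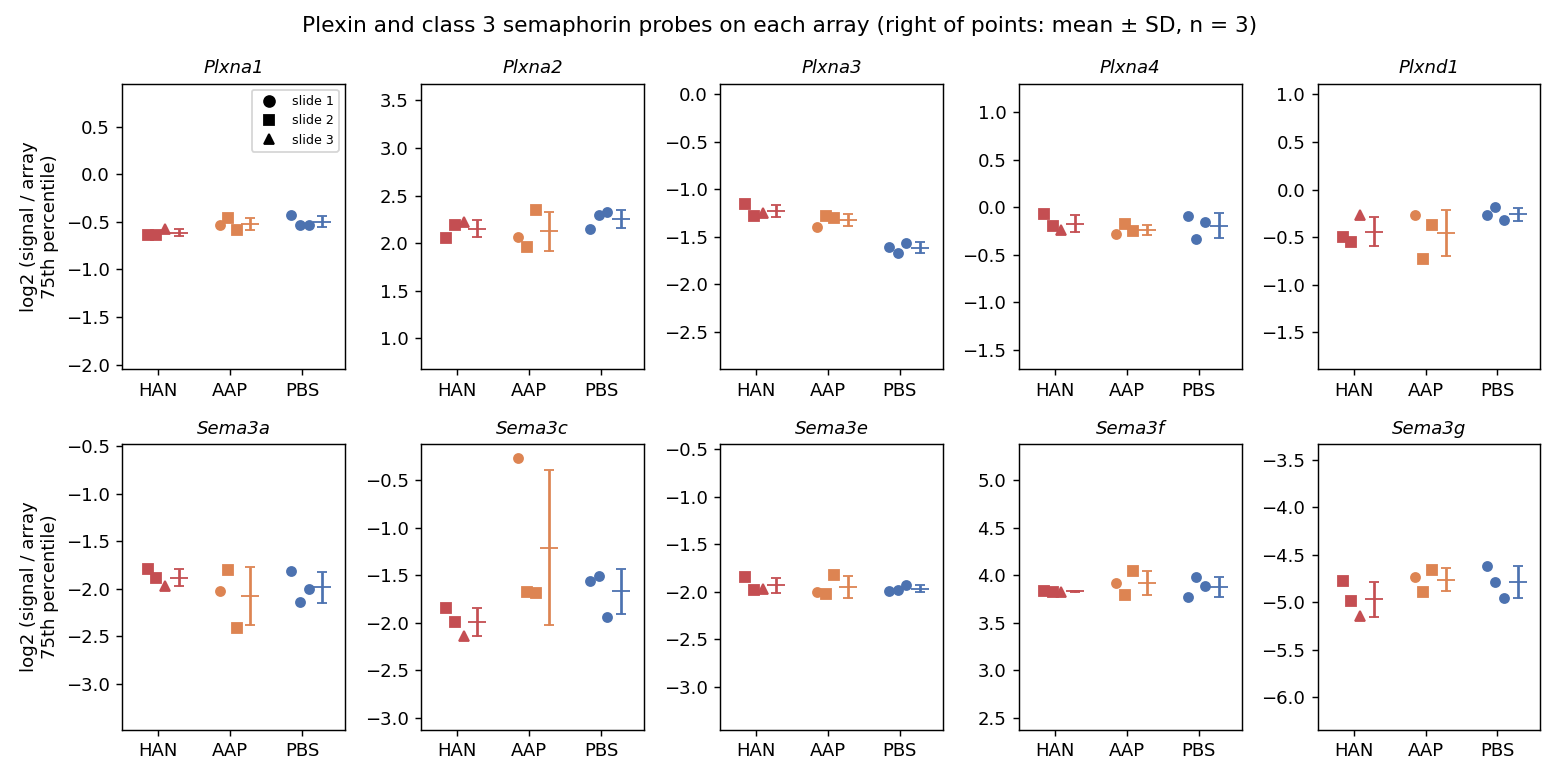
Level of each of the 10 genes on every array, as log2 signal over the array's 75th percentile, in HAN, AAP and PBS, with the symbol showing the slide and the mean ± SD (n = 3) to the right of the points. Every panel spans the same height in log2 units; the Plxna3 points of HAN (-1.28 to -1.15) and AAP (-1.39 to -1.28) lie above those of PBS (-1.67 to -1.56), and AAP 1 stands alone at -0.27 for Sema3c.

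Of the 9 members other than Plxna3, 0 passed limma's adjusted p of 0.05 in HAN against PBS, where 0.00419% of all genes did, and 0 of 9 had an unadjusted p below 0.05, against 9.65% of all genes. The same holds for AAP against PBS, with 0 of 9 members and 0.00419% of all genes past the adjusted p, and 0 of 9 and 6.79% at the unadjusted p. In HAN against AAP it was 0 of 9 and 0% at the adjusted p, and 0 of 9 and 8.54% (2041 genes) at the unadjusted p. Groups did not overlap for 1 of the 9 in HAN against PBS (Plxna1, lower in HAN), against 20.9% of all genes (10.5% higher and 10.4% lower). They did not overlap for 0 of the 9 in AAP against PBS, against 11.9% (6.52% higher and 5.40% lower), and for 1 of the 9 in HAN against AAP (Sema3c, lower in HAN), against 14.3% (6.76% higher and 7.58% lower). The median difference of the 9 members was -0.10 in HAN against PBS and -0.03 in AAP against PBS, where the median of all genes was 0.01 and 0.00. Their median absolute difference was 0.10 in HAN against PBS, as over all genes, and 0.04 in AAP against PBS, against 0.09 over all genes.

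None of the other 4 plexins passed the test in any comparison. Plxna1, which binds Sema3a together with Nrp1, read -0.64, -0.63 and -0.57 in HAN and -0.43, -0.54 and -0.53 in PBS. Each HAN pool lay below each PBS pool, by a gap of 0.03. The difference was -0.12 (95% interval -0.26 to 0.03, limma adjusted p = 0.579). The AAP pools, at -0.53, -0.46 and -0.59, overlapped both other groups, and AAP minus PBS was -0.03 (-0.17 to 0.12, limma adjusted p = 0.946).

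Plxnd1, the Sema3e receptor known from endothelium, was measured by a pair of probes. The brighter read -0.50, -0.55 and -0.27 in HAN, -0.27, -0.73 and -0.37 in AAP and -0.27, -0.19 and -0.32 in PBS. The lowest arrays were AAP 2, HAN 2 and HAN 1, all of slide 2, and all groups overlapped. The HAN mean differed from PBS by -0.18 (-0.48 to 0.12, limma adjusted p = 0.686), and AAP minus PBS was -0.20 (-0.50 to 0.10, limma adjusted p = 0.800). With slide as a fixed block these became 0.01 and -0.01, and both values rest on AAP 1 as the link between slides. The part of slide in the Plxnd1 values was not tested. On the dimmer probe HAN minus PBS was 0.02 (-0.41 to 0.46), of opposite sign to the brighter one. The correlation of the probes over the 9 arrays was 0.52.

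Plxna2 and Plxna4 are also receptors for transmembrane semaphorins of class 6. Plxna2 ran from 1.96 (AAP 2) to 2.35 (AAP 3), and its mean was 2.15 ± 0.09 in HAN, 2.12 ± 0.20 in AAP and 2.26 ± 0.10 in PBS. Its difference from PBS was -0.10 in HAN (-0.36 to 0.15) and -0.13 in AAP (-0.39 to 0.12). Plxna4 kept within a range of 0.26 over all arrays, with means of -0.17 ± 0.09 in HAN, -0.23 ± 0.05 in AAP and -0.19 ± 0.13 in PBS. Its difference from PBS was 0.02 in HAN (-0.17 to 0.21) and -0.04 in AAP (-0.24 to 0.15). Over both genes these intervals reach from 0.764-fold to 1.16-fold of PBS.

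**Figure D2:**
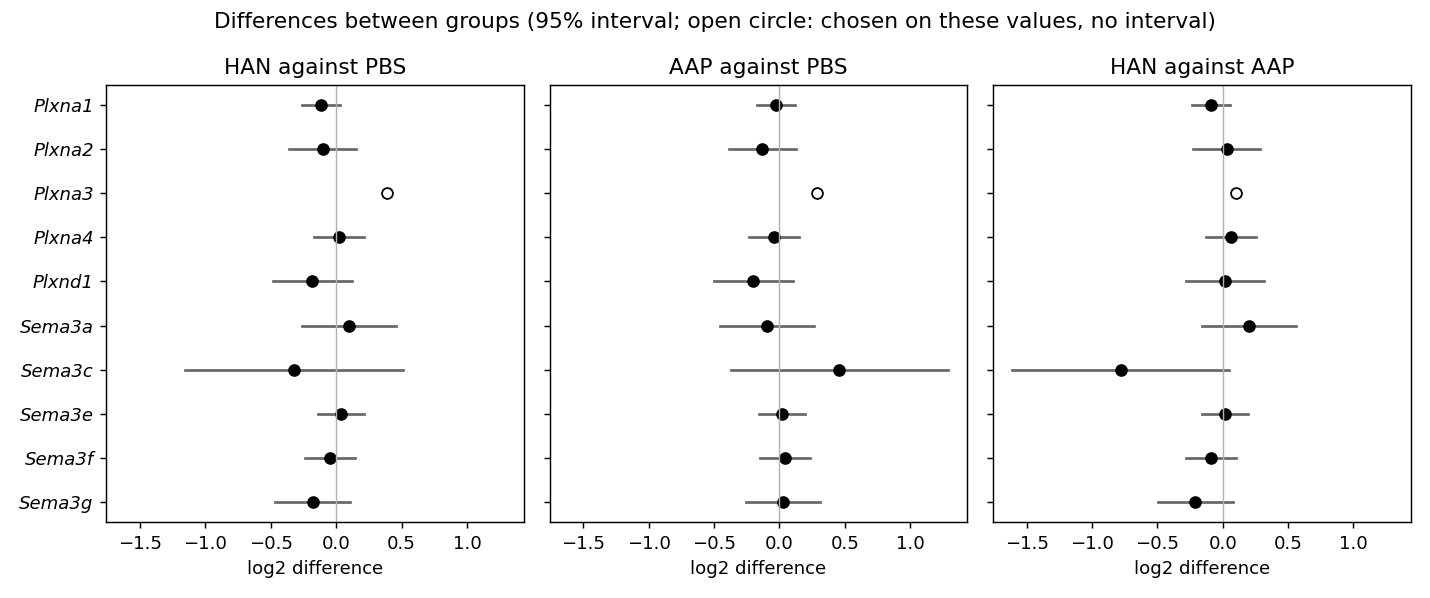
Difference of group means on the log2 scale for each of the 10 genes in HAN against PBS, AAP against PBS and HAN against AAP, with 95% intervals from the all-gene limma model. Plxna3 is an open circle without interval, at 0.39, 0.29 and 0.10; every interval of the other genes includes 0, and that of Sema3c is the widest.

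Among the ligands, Sema3c differed most between arrays, by 1.88 on the log2 scale, and most of that lay in a single pool. Sema3c binds both neuropilins and is known from heart outflow and vessel development. Its brighter probe read -1.84, -1.99 and -2.15 in HAN, -0.27, -1.68 and -1.69 in AAP, and -1.56, -1.51 and -1.95 in PBS. AAP 1 was 2.64-fold above the PBS mean, while AAP 2 and AAP 3 lay within the PBS range. The second probe read -4.55, -4.64 and -4.83 in HAN, -2.97, -4.07 and -4.61 in AAP, and -3.90, -4.14 and -4.45 in PBS. It showed the same pool apart, with AAP 1 at 2.28-fold over the PBS mean, and the probes correlated at r = 0.95 over the 9 arrays, which share their RNA.

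The AAP mean of Sema3c was 0.46 above PBS (-0.37 to 1.29, limma adjusted p = 0.831), and without AAP 1 the difference was -0.01. Within slide 1, where AAP 1 is the only AAP pool, AAP minus PBS was 1.40. The HAN mean was -0.32 from PBS (-1.15 to 0.51, limma adjusted p = 0.811), with overlapping groups on the brighter probe and every HAN pool below every PBS pool on the dimmer one (-0.51, -1.36 to 0.34). With slide as a fixed block, the HAN difference from PBS became 1.17, a value that rests on AAP 1 as the link between slides. All HAN pools lay below all AAP pools on the brighter probe, with a difference of -0.78 (-1.61 to 0.05, limma adjusted p = 0.574). That difference was -0.31 without AAP 1 and -0.23 within slide 2. On the dimmer probe the HAN and AAP pools overlapped, with a difference of -0.79 (-1.64 to 0.06).

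Some marker lists of other tissues and cell types also had members raised on AAP 1. All 9 measured muscle markers were above every HAN and PBS array on both AAP 1 and AAP 3, while Sema3c was raised on AAP 1 only. The summed muscle signal was 0.56, 0.51 and 0.55 in HAN, 80.9, 0.47 and 30.7 in AAP, and 0.70, 0.49 and 0.54 in PBS, as multiples of the array's 75th percentile. Of 7 pigment epithelium markers 5 were highest on AAP 1, where their summed signal was 70.9, against 21.7 to 36.5 in HAN, 35.7 and 35.6 in AAP 2 and AAP 3, and 36.1 to 38.2 in PBS. Of 9 endothelial markers 5 were highest on AAP 1. Their sum was not, at 4.04 on AAP 1, against 3.66 to 4.07 in HAN, 3.31 and 4.19 on AAP 2 and AAP 3, and 3.44 to 3.84 in PBS. Their mean log2 difference from the PBS mean was highest on AAP 1, at 0.31, with HAN 2 next at 0.20. Of 6 cornea, iris and ciliary body markers 3 were highest on AAP 1, with a sum of 84.8, against 5.79 to 14.9 in HAN, 6.52 and 2.39 on AAP 2 and AAP 3, and 3.09 to 32.0 in PBS. The lens sum did not set AAP 1 apart, at 211.3 there and 88.5 to 865.7 in PBS. It was 710.0 to 987.1 in HAN, and 1265 and 113.6 on AAP 2 and AAP 3. Of the muscle markers 7 were above background on all 9 arrays, and all markers of the other 4 lists were. The part of these markers in the Sema3c signal of AAP 1 was not tested.

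**Figure D3:**
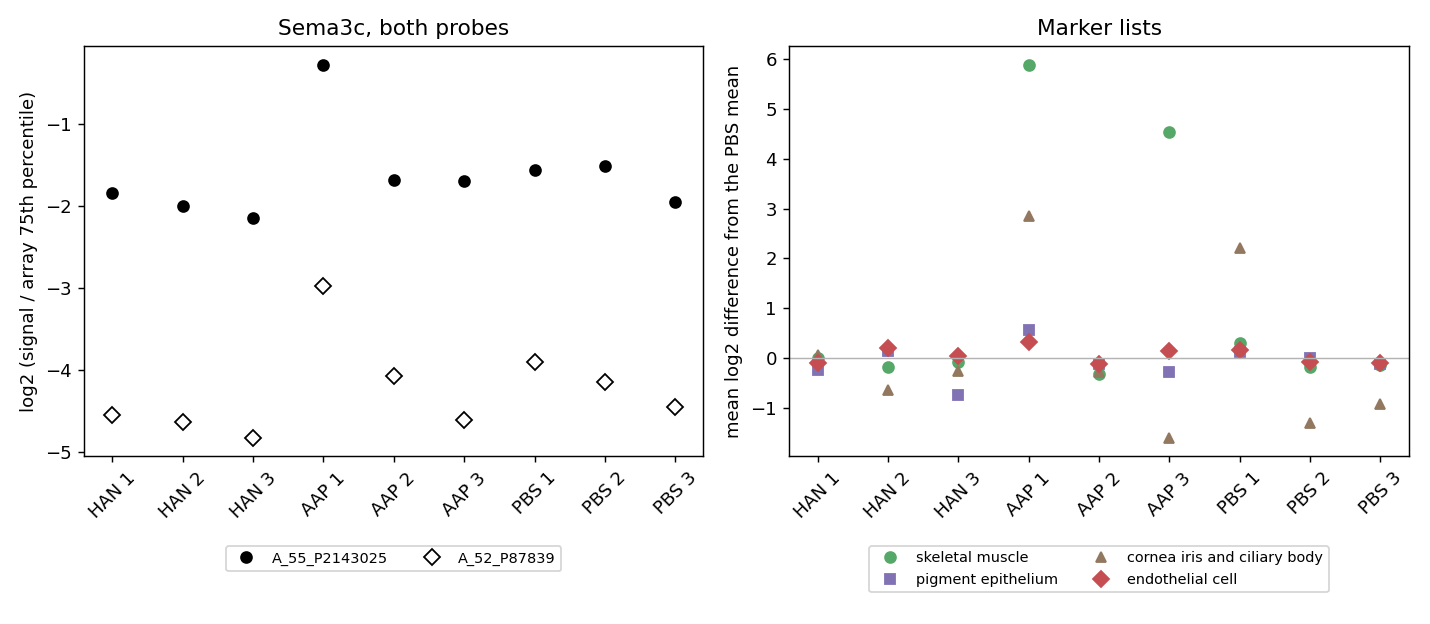
Left, both Sema3c probes on each of the 9 arrays as log2 signal over the array's 75th percentile; right, mean log2 difference from the PBS mean of 4 marker lists on the same arrays. Both Sema3c probes are highest on AAP 1 (-0.27 and -2.97), where the muscle list stands at 5.89; on AAP 3 the muscle list stands at 4.53 and the brighter Sema3c probe at -1.69.

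The other 4 ligands did not pass the test in any comparison. Sema3a, the classic repellent of axons that acts through Nrp1, read -1.79, -1.89 and -1.97 in HAN, -2.02, -1.81 and -2.41 in AAP, and -1.81, -2.14 and -2.01 in PBS. The groups overlapped, and AAP 3 was the lowest array. HAN minus PBS was 0.10 (-0.26 to 0.46, limma adjusted p = 0.872) and AAP minus PBS -0.10 (-0.46 to 0.26, limma adjusted p = 0.917). On a dimmer Sema3a probe AAP minus PBS was 0.20 (-0.15 to 0.56), of opposite sign to the brighter one. HAN minus PBS was 0.14 there (-0.22 to 0.50), of the same sign. The correlation of the probes over the arrays was 0.21.

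Sema3f, a ligand with a preference for Nrp2, read 3.84, 3.83 and 3.83 in HAN, 3.92, 3.79 and 4.05 in AAP, and 3.77, 3.98 and 3.89 in PBS. The HAN pools fell inside the range of the other groups and close together. Against PBS, the difference was -0.05 in HAN (-0.24 to 0.15) and 0.04 in AAP (-0.15 to 0.23). Sema3e, the Plxnd1 ligand, varied least of the ligands, by 0.21 over all arrays, with means of -1.93 ± 0.08 in HAN, -1.95 ± 0.11 in AAP and -1.97 ± 0.04 in PBS. Its difference from PBS was 0.04 in HAN (-0.14 to 0.21) and 0.02 in AAP (-0.16 to 0.19).

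Sema3g, an Nrp2 ligand known from endothelium, read -4.78, -4.99 and -5.14 in HAN, -4.73, -4.89 and -4.66 in AAP, and -4.62, -4.79 and -4.95 in PBS. The groups overlapped, with HAN 3 lowest. The HAN mean stood at -0.18 from PBS (-0.47 to 0.10, limma adjusted p = 0.669). That sign depended on the background correction: under normexp, a model-based correction of the raw spot signal, HAN minus PBS was 0.64, and 0.48 relative to the median of all genes, which moved by 0.15 in that setting.

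The rest of the pathway was read from 7 lists with 86 genes, of which 82 were measured above background. Plxnb3, Mical2, Ntn1 and Unc5d were too dim. In limma's test 0 of 82 were called higher and 0 lower in HAN against PBS, in AAP against PBS and in HAN against AAP; 5, 2 and 9 of them had an unadjusted p below 0.05, or 6.10%, 2.44% and 10.98%, beside 9.65%, 6.79% and 8.54% of all genes. In HAN against PBS the groups did not overlap for 4 of the 82 higher and 14 lower, beside 10.5% and 10.4% of all genes. In AAP against PBS it was 3 higher and 6 lower, beside 6.52% and 5.40%. In HAN against AAP it was 9 higher and 7 lower, beside 6.76% and 7.58%. The lists' median differences from PBS lay between -0.03 and 0.07 in HAN and between -0.15 and 0.04 in AAP.

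Of the remaining plexins, Plxnb1 and Plxnb2 are receptors for class 4 semaphorins and Plxnc1 for Sema7a. Plxnb1 differed from PBS by 0.04 in HAN and 0.14 in AAP, and Plxnb2 by 0.04 and -0.15. Plxnc1 differed by 0.14 in HAN (-0.28 to 0.57) and -0.28 in AAP (-0.70 to 0.15), and HAN stood 0.42 above AAP (-0.01 to 0.85, limma adjusted p = 0.573).

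The neuropilins Nrp1 and Nrp2 hold the ligand for the plexin. Nrp1 read -4.02, -3.85 and -4.33 in HAN, -4.44, -4.33 and -4.34 in AAP, and -4.03, -4.28 and -4.06 in PBS. All AAP pools lay below all PBS pools and below the HAN pools, and neither difference passed. AAP minus PBS was -0.25 (-0.55 to 0.04, limma adjusted p = 0.739), and HAN minus AAP was 0.31 (0.01 to 0.60, limma adjusted p = 0.573). HAN minus PBS was 0.05 for Nrp1 (-0.24 to 0.35) and 0.09 for Nrp2 (-0.08 to 0.26), and AAP minus PBS was -0.03 for Nrp2 (-0.20 to 0.15).

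The remaining class 3 ligands Sema3b and Sema3d differed from PBS by -0.06 and 0.05 in HAN, and by -0.26 and 0.12 in AAP. Among 13 semaphorins of classes 4 to 7 the smallest p values against PBS belonged in HAN to Sema6a and Sema6d, transmembrane ligands of A-type plexins. Sema6a read 0.12, 0.06 and 0.16 in HAN, -0.22, -0.18 and -0.39 in AAP, and -0.03, -0.23 and -0.30 in PBS. Sema6d read -0.99, -1.10 and -1.19 in HAN, -0.64, -0.67 and -0.02 in AAP, and -0.73, -0.62 and -0.53 in PBS. For Sema6a every HAN pool lay above every other pool, and for Sema6d below. HAN minus PBS was 0.30 for Sema6a (0.09 to 0.51, limma adjusted p = 0.430) and -0.47 for Sema6d (-0.86 to -0.08, limma adjusted p = 0.458), and neither passed over all genes. In AAP against PBS the smallest p values were those of Sema5a (-0.16) and Sema4b (-0.12).

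Of 9 co-receptors and ligand-processing enzymes, the adhesion molecule Chl1 differed from PBS by -0.20 in HAN and -0.19 in AAP, and every pool of either lay below every PBS pool. The receptor tyrosine kinase Met differed by -0.20 in HAN. The proprotein convertase Pcsk5 differed by -0.56 in AAP (-1.11 to -0.02, limma adjusted p = 0.724) and stood 0.52 higher in HAN than in AAP, and its relative Pcsk6 stood at -0.16 in HAN against AAP. Of 26 cytoplasmic effectors, the small GTPase Rnd1 differed from PBS by -0.43 in HAN (-0.79 to -0.08, limma adjusted p = 0.462) and the collapsin response mediator Dpysl5 by -0.39 (-0.80 to 0.02). Rras, the GTPase that plexins switch off, differed by -0.23 in AAP and the guanine nucleotide exchange factor Arhgef11 by -0.11.

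Outside the semaphorin system, 27 netrin, slit and ephrin ligands and receptors gave the background. The netrin receptor Dcc read 6.90, 6.99 and 6.99 in HAN, 6.99, 6.88 and 7.08 in AAP, and 6.63, 6.77 and 6.68 in PBS. Each peptide group lay above all PBS pools, as 10.5% of all genes did in HAN and 6.52% in AAP. Dcc differed from PBS by 0.26 in HAN (0.10 to 0.43, limma adjusted p = 0.397) and by 0.29 in AAP (0.12 to 0.46, limma adjusted p = 0.626), and did not pass. The ephrin receptor Epha5 differed by -0.38 in HAN, and Ntn4, a netrin, by -0.91 in AAP (-1.82 to 0.01). HAN minus AAP was -0.53 for Epha5 and 0.67 for the ligand Efna1.

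**Figure D4:**
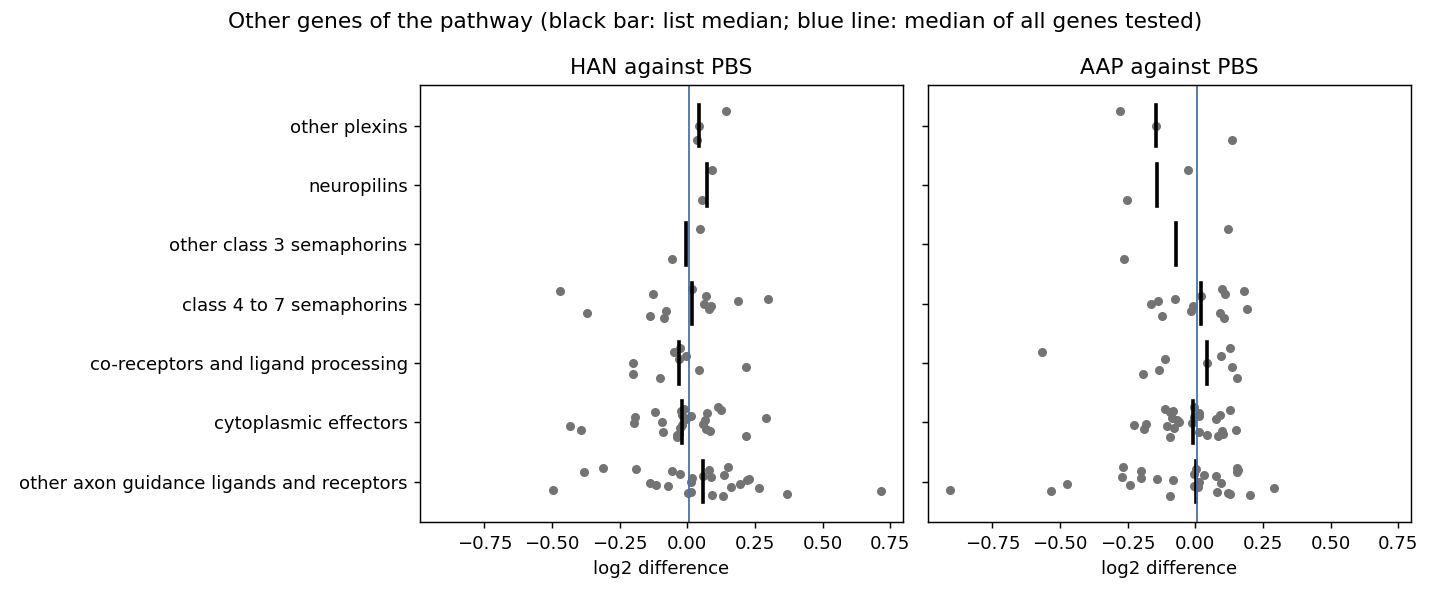
Difference from PBS on the log2 scale of each measured gene of the 7 pathway lists in HAN and in AAP, one point a gene, with the list median as a black bar and the median of all genes as a blue line. List medians lie between -0.03 and 0.07 in HAN and between -0.15 and 0.04 in AAP, and no gene passed the test.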

How the data were processed

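Per the file headers, spots were quantified with Agilent Feature Extraction 11.0.1.1 (protocol GE1_1100_Jul11, array design on mm9). The deposited scanner files hold the processed signal as an intensity on a linear scale, with no scaling across arrays. The authors' deposited value table equalled this intensity for at least 99.7% of values on each array, which settled its scale, centring and direction, and its column medians ran from 164.7 to 298.3.

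Control and outlier spots were left out. The log2 signal was reduced by the array's 75th percentile, spots of a probe were averaged, and probes well above background throughout 1 or more groups were kept. The kept probe with the highest mean stood for its gene. The accessions of 26055 probes matched 19751 symbols of the GRCm38.p6 gene table. Other probes were counted under the array's own name for their target, so shares of all genes include such targets. No gene coordinates were taken from it.

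One limma 3.58.1 model (R 4.3.3, lmFit and eBayes, two-sided) with a mean for each of 3 groups gave every comparison. Benjamini-Hochberg adjustment ran over 23892 genes, with a threshold of 0.05. The fitting code was also run on simulated arrays with independent noise and no slide differences. That run cannot show how the model handles slide or tissue differences on these arrays. The number of arrays limits the precision: 95% intervals had a median half-width of 1.18-fold. Marker and pathway lists, named genes (all members and close relatives, and the 2 smallest p of each other list) and alternatives were written down with earlier results of these data known, as were the members. Normexp used the median spot signal. One marker list is not reported here.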

Additional observations from a re-analysis of the deposited data

How the results depend on the processing

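In every comparison, 0 of the 9 members other than Plxna3 passed in any of the 24 or 25 alternatives. Of 740 alternative member values 686 kept their sign. The count includes Plxna3, which was picked for its rise. It also includes settings that cannot move a value, such as leaving out an array of the group not compared. It is therefore no measure of how stable the values are. The slide block put Sema3c at 1.17 in HAN against PBS, where -0.32 was reported. Over all genes, HAN against PBS called 1 transcript. It called 0 with normexp and 0 with the replicate block, 2 with slide as a fixed block and 3 with array weights, and 1 to 3 with a replicate left out (3 without HAN 1 or HAN 2). AAP against PBS called 1 transcript. It called 0 with normexp, quantile normalisation, centring on the array median, no filter on dim probes, the replicate block, only the 2 groups compared, or without AAP 1 and AAP 3 together, which was chosen after seeing the data. It called 48 with slide as a fixed block and 79 within slide 1, both resting on AAP 1. With a replicate left out the count ran from 0 to 12, with 12 without AAP 2 and 0 without HAN 1, HAN 2, HAN 3, AAP 3, PBS 1, PBS 2 or PBS 3. HAN against AAP called 0, and 0 to 13 with a replicate left out (13 without AAP 2, 1 without HAN 1 or HAN 2). The cause of these changes was not tested. Same-numbered pools correlated between -0.28 and 0.40 in their deviations from the group means, and differently numbered pools between -0.62 and 0.54. The numbers were therefore not taken to pair samples, and the replicate block called 0 members. Normexp, chosen after seeing the data on the median signal, moved the median of all genes by 0.15 in HAN against PBS and by 0.12 in HAN against AAP.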
